A study of Mus musculus with 14 samples.

Results

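The cardiac muscle genes of the mouse lung were followed in 14 whole lungs: Myh6, Myl7, Myl4, Sln, Nppa, Actc1, Tnnt2, Tnni3, Mybpc3 and Ryr2. They were chosen by name, as the array probes whose RefSeq transcript belongs to one of these 10 genes, which gave 15 of the 41174 probes and 10 of the 17178 named genes. Lungs of male C57BL/6N mice were taken 6 months after 1 of 4 liquids had been placed in the trachea. Ctrl mice (3 arrays) received phosphate-buffered saline, and the other mice 200 µg of carbon fibre each, as VCF (4 arrays, fibre before recycling), CCF (3 arrays, fibre after carbonization) or RCF (4 arrays, fibre after firing). The design text calls the samples independent biological samples. RNA of a whole lung carries no position, so the muscle of the vein wall and atrial tissue left at the hilum cannot be told apart. In such bulk RNA, fewer cells of a type and less RNA per cell cannot be told apart either.

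In mice, heart muscle of the atrial kind leaves the left atrium and runs as a sleeve along the pulmonary veins into the lung, so whole-lung RNA holds transcripts of the contractile apparatus. In that apparatus, myosin thick filaments pull on actin thin filaments. Troponin on the thin filament opens the way when calcium is released from the sarcoplasmic reticulum, and the atrial cells also store and secrete the hormone that Nppa encodes.

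The genes move together from lung to lung, as described further on, and any part of their promoters in this was not tested. The windows before 5 of the start sites are shown. Nppa has the widest range over the lungs and Actc1 the narrowest, and Myl7, Mybpc3 and Tnnt2 carry matches to motifs known from muscle promoters. Each is the 250 bases before the RefSeq start on GRCm38.p6, read 5′ to 3′ in the direction of the gene. Nppa lies at chr4:148000472-148000721 (plus strand), Actc1 at chr2:114052876-114053125 (minus), Myl7 at chr11:5898783-5899032 (minus), Mybpc3 at chr2:91117894-91118143 (plus) and Tnnt2 at chr1:135836084-135836333 (plus). Capitals mark matches, on either strand, to the MCAT element CATTCC, the GATA element AGATAA, the CArG box and the MEF2 box.
Nppa: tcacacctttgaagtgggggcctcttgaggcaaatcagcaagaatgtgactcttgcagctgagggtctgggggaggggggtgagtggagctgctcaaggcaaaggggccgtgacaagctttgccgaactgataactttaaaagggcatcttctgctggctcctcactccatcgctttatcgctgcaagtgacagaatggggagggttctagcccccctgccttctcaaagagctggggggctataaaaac
Actc1: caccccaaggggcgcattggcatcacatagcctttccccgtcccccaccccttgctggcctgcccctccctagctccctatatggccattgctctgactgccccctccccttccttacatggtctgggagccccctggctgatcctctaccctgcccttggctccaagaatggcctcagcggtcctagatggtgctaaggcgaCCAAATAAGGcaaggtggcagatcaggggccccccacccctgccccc
Myl7: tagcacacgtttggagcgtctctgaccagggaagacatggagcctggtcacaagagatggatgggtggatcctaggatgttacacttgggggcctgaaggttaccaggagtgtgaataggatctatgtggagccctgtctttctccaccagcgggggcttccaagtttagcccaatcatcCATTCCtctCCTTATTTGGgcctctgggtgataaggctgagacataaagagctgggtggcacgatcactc
Mybpc3: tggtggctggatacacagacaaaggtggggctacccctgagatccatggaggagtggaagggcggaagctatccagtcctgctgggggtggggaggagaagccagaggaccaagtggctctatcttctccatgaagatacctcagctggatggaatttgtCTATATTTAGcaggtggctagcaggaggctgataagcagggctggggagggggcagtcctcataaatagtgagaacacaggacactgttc
Tnnt2: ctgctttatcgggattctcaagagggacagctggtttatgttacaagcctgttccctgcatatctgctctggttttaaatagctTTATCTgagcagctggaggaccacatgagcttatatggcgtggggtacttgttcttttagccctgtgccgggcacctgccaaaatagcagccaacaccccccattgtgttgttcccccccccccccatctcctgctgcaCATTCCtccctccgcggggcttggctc

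The CArG box is the site of serum response factor, the MCAT element that of TEAD factors, and the other motifs are named for the MEF2, GATA and NKX2-5 factors. In Myl7 the match to MCAT begins 70 bases before the start and that to the CArG box 61 bases before it. In Actc1 the CArG match begins 47 bases before the start, in Mybpc3 the MEF2 match 90, and in Tnnt2 the GATA match 166 and the MCAT match 27. The Nppa window holds none of these 4, but 2 matches to the E-box CANNTG and 2 to AAGTG, the NKX2-5 core, which are not in capitals. RefSeq's table holds a window for 9 of the 10 genes, with 2 for Tnnt2. The second Tnnt2 window, not shown, held an E-box match and no match to the other motifs. A gene was counted if any of its windows had a match. Of the 9 genes, 2 had a CArG match, 1 a MEF2 match, 1 a GATA match, 3 an MCAT match, 7 an E-box and 5 the NKX2-5 core. The shares of all 32851 promoter windows of this length with a match were 1.47%, 2.92%, 9.99%, 12.6%, 66.2% and 40.7% in the same order. Matches of the E-box and of AAGTG can overlap, and a match is a run of letters, not a site shown to be bound.

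Signals are given as log2 of the background-subtracted intensity minus the array's own 75th percentile, so 0 is a bright probe and 1 unit is a doubling. That percentile ran from 724.7 to 1345.6 intensity units, between 63.1% and 70.5% of an array's probes were well above background, and no spot was saturated. The arrays lay on 4 slides, each with its own scan session: slide 1 held Ctrl replicate 3, VCF replicate 3, CCF replicate 3 and RCF replicate 1; slide 2 held Ctrl replicate 2, VCF replicate 4 and RCF replicate 4. Slide 3 held Ctrl replicate 1, VCF replicate 2, CCF replicate 1 and RCF replicate 3, and slide 4 held VCF replicate 1, CCF replicate 2 and RCF replicate 2. The tissue label held up: all 8 markers of alveolar and airway epithelium and endothelium, among them Sftpc and Scgb1a1, were well above background on 14 of 14 arrays. Each gene was read at its brightest probe, and levels of different probes are not comparable.

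Cardiac transcripts differed far more between lungs of the same group than between groups. In 4 lungs the 10 genes were low together: Ctrl replicate 2, VCF replicate 4, CCF replicate 1 and RCF replicate 4, 1 in each group. Averaged over the genes, each centred on its own mean, these stood at -2.12, -2.54, -2.07 and -1.78, while the other 10 lungs ran from -0.14 (RCF replicate 2) to 1.73 (VCF replicate 1). VCF replicate 4, CCF replicate 1 and RCF replicate 4 were among the lowest 4 arrays for 10 of 10 genes, and Ctrl replicate 2 for 9 of the 9 genes read there. At the other end, CCF replicate 2 and RCF replicate 1 were among the highest 4 for 10 of 10 genes and VCF replicate 1 for 9.

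**Figure D1:**
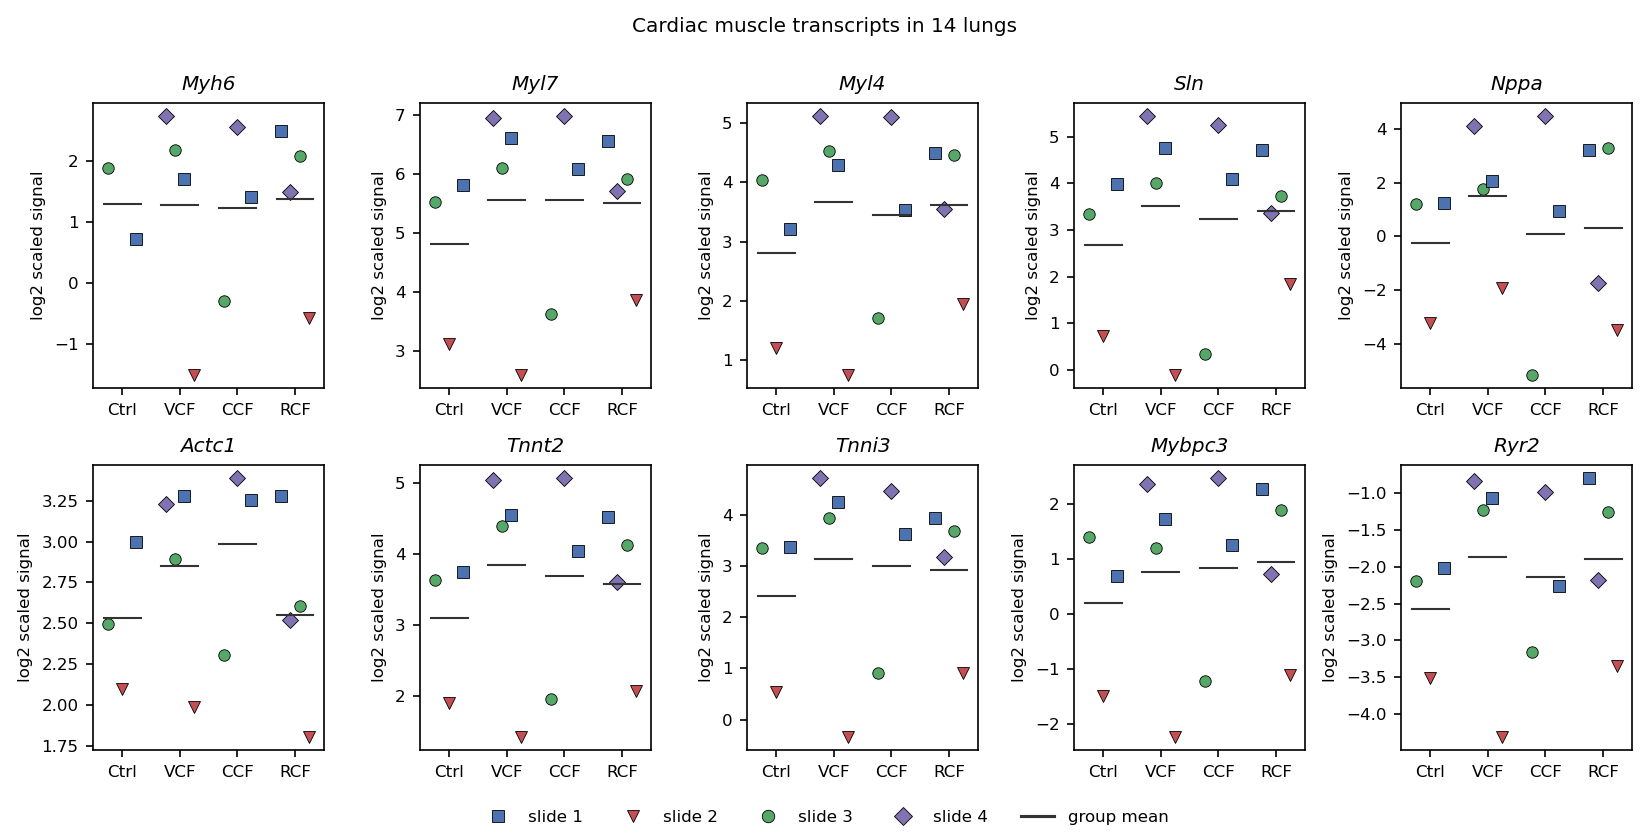
Log2 scaled signal of each cardiac gene (vertical axis, own scale per panel) in the 14 lungs by group, with symbols for the slide and bars for group means. The ranges of the groups overlap in every panel, and the 3 arrays of slide 2 and CCF replicate 1 of slide 3 lie at the bottom of most panels.

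All 3 arrays of slide 2 were low, at -2.54 to -1.78, and the other low lung was on slide 3, whose other arrays reached 0.89. Slide 1 ran from 0.21 to 1.30 and slide 4 from -0.14 to 1.73. Slide and scan session coincide, and the part of either in the low values was not tested. CCF replicate 1 was low on a slide where Ctrl replicate 1 stood at 0.30, VCF replicate 2 at 0.81 and RCF replicate 3 at 0.89.

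Among the thick filament genes, Myl7 encodes the regulatory light chain of atrial myosin. Its signal was 5.53, 3.12 and 5.81 in Ctrl, 6.95, 6.11, 6.61 and 2.59 in VCF, 3.62, 6.99 and 6.09 in CCF, and 6.57, 5.72, 5.91 and 3.87 in RCF, in the order of the replicate numbers. Each group thus held 1 low lung, and the ranges of all 4 groups overlapped. Group means were 4.82 ± 1.48 (SD, n = 3) in Ctrl, 5.57 ± 2.01 (n = 4) in VCF, 5.57 ± 1.74 (n = 3) in CCF and 5.52 ± 1.16 (n = 4) in RCF. A gap of 1.66 separated the fourth lowest lung from the fifth, wider than any other gap for this gene. On the linear scale the highest lung was 21.1-fold above the lowest.

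Myl4, the essential light chain of atrial myosin, ran from 0.74 in VCF replicate 4 over a median of 3.79 to 5.13 in VCF replicate 1, a 21.0-fold range, with its widest gap (1.26) again above the fourth lowest lung. Its means were 2.81 ± 1.46 in Ctrl, 3.67 ± 1.99 in VCF, 3.45 ± 1.70 in CCF and 3.62 ± 1.20 in RCF. Mybpc3, which encodes the cardiac myosin-binding protein C that braces the thick filament, ran from -2.24 in VCF replicate 4 over 1.22 to 2.47 in CCF replicate 2, or 26.1-fold. A gap of 1.79 lay above the fourth lowest lung. The order of the Mybpc3 group means, from 0.20 ± 1.51 in Ctrl over 0.76 ± 2.05 in VCF and 0.83 ± 1.87 in CCF to 0.95 ± 1.51 in RCF, lies well inside the spread of each group.

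Myh6 encodes the alpha myosin heavy chain, the motor of adult mouse heart muscle. Its brightest probe read 1.90 and 0.71 in Ctrl, 2.75, 2.18, 1.70 and -1.52 in VCF, -0.30, 2.57 and 1.41 in CCF, and 2.50, 1.50, 2.09 and -0.58 in RCF. The reading of Ctrl replicate 2 is left out, because the scanner software marked that spot as non-uniform, so Ctrl has n = 2 here. The spot read 3.15, against -2.82 for the second Myh6 probe on the same array, the lowest of that probe's 14 values. That second probe read 0.49 and -0.43 in the other Ctrl lungs, 1.54, 0.68, 0.50 and -2.37 in VCF, -1.34, 0.88 and 0.09 in CCF, and 1.12, 0.07, 0.79 and -1.79 in RCF. It thus placed the same 4 lungs lowest as Myl7 did.

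Of the thin filament genes, Tnni3 encodes cardiac troponin I, the subunit that holds contraction off at low calcium. Its values were 3.35, 0.54 and 3.36 in Ctrl, 4.72, 3.93, 4.25 and -0.35 in VCF, 0.91, 4.47 and 3.62 in CCF, and 3.94, 3.17, 3.69 and 0.91 in RCF. The low and the other lungs stood furthest apart for this gene among those whose widest gap lay above the fourth lowest lung, with no value between 0.91 and 3.17 (a gap of 2.26). The Tnni3 means were 2.42 ± 1.63 in Ctrl, 3.14 ± 2.35 in VCF, 3.00 ± 1.86 in CCF and 2.93 ± 1.38 in RCF. Tnnt2, cardiac troponin T, which ties the troponin complex to tropomyosin, ran from 1.42 in VCF replicate 4 over 3.89 to 5.07 in CCF replicate 2, or 12.6-fold. Its widest gap was 1.54, between RCF replicate 4 and RCF replicate 2, and its means lay between 3.09 ± 1.03 in Ctrl and 3.85 ± 1.65 in VCF.

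Actc1, the cardiac alpha-actin of the thin filament, varied least. It read 2.49, 2.10 and 3.00 in Ctrl, 3.23, 2.89, 3.28 and 1.99 in VCF, 2.31, 3.39 and 3.26 in CCF, and 3.28, 2.52, 2.60 and 1.80 in RCF. The same 4 lungs were lowest, but no gap set them apart, since the fourth and the fifth lowest differed by 0.19 and the whole range was 3.01-fold. Muscle actin genes are close copies of each other, so the reading is uncertain as far as the probe takes up other actins.

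Ryr2 encodes the channel that releases calcium from the sarcoplasmic reticulum. Its brighter probe ran from -4.32 in VCF replicate 4 over -2.10 to -0.79 in RCF replicate 1, or 11.5-fold, with the widest gap (0.90) above the fourth lowest lung. Its means were -2.58 ± 0.82 in Ctrl, -1.86 ± 1.65 in VCF, -2.13 ± 1.09 in CCF and -1.89 ± 1.13 in RCF. A second Ryr2 probe was well above background on 4 of 14 arrays and followed the first with r = 0.17, so it is not read further. Sln encodes sarcolipin, a small inhibitor of the calcium pump that in the heart is mainly atrial. Sln ran from -0.12 in VCF replicate 4 over 3.85 to 5.45 in VCF replicate 1, or 47.3-fold. A gap of 1.49 lay above the fourth lowest lung, and its means ran from 2.68 ± 1.73 in Ctrl to 3.52 ± 2.50 in VCF.

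Nppa, which encodes the precursor of atrial natriuretic peptide, a hormone that lowers blood volume and pressure, varied most. It read 1.21, -3.22 and 1.25 in Ctrl, 4.14, 1.79, 2.07 and -1.92 in VCF, -5.18, 4.50 and 0.96 in CCF, and 3.23, -1.72, 3.30 and -3.49 in RCF. RCF replicate 2 was low for Nppa together with the 4 lungs above, so the widest gap (2.69) lay above the fifth lowest lung. From CCF replicate 1 to CCF replicate 2, lungs of the same group, the signal differed by 9.69 log2 units, or 825-fold. The Nppa means were -0.25 ± 2.57 in Ctrl, 1.52 ± 2.52 in VCF, 0.09 ± 4.90 in CCF and 0.33 ± 3.47 in RCF. A second Nppa probe, well above background on 12 arrays, placed the lungs alike (r = 0.998) over a range of 9.95. Each of the probes has 10 spots per array. On Ctrl replicate 2 a spot of the brighter probe read 88677 intensity units against a median of 145.4 for the other 9; it was marked by the software and left out.

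**Figure D2:**
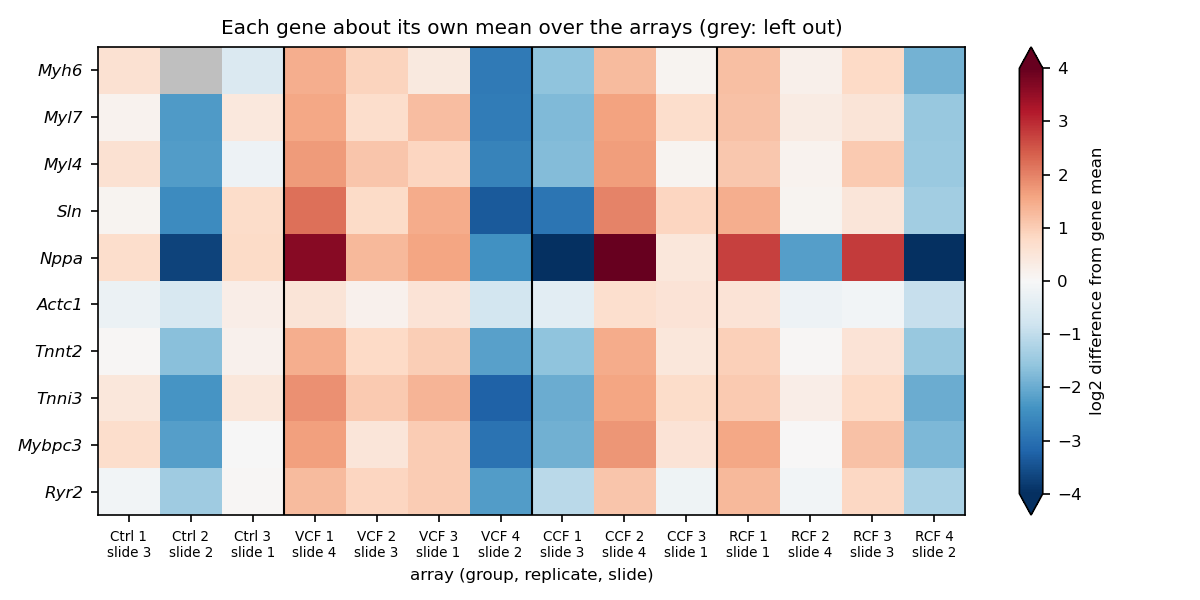
Each gene's log2 signal minus its own mean over the arrays (colour) in each lung (columns, by group and replicate with the slide), genes in rows. Ctrl replicate 2, VCF replicate 4, CCF replicate 1 and RCF replicate 4 are blue for the genes measured, the Myh6 cell of Ctrl replicate 2 is grey because its spot was left out, and some Nppa values lie beyond the ends of the colour scale.

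The spread inside groups was set against that of every probe tested. The SD about the group means had a median of 1.63 over the 10 genes and of 0.27 over all 29269 probes. The Nppa probes held the first and second place among all of these, at 3.63 and 3.41. Sln (2.05) was passed by 43 probes, Tnni3 (1.86) by 87, Mybpc3 (1.76) by 121, Myl7 (1.63) by 172 and Myl4 (1.62) by 180. Myh6 (1.54) was passed by 220, Tnnt2 (1.37) by 343, Ryr2 (1.25) by 494 and Actc1 (0.57) by 4090. In all, 7 of the genes were in the top 1% of probes and 9 in the top 5%, with Actc1 at the 86.0th percentile. The median range over the lungs was 4.39 for the genes and 0.95 for all probes.

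Part of this spread lay between slides. With the slide as a further term in the fit, the median SD of the genes was 0.97. The ratio of each gene's SD with the slide to its SD without it had a median of 0.615. Over all probes the median of this ratio was 0.887. A ratio below 0.615 was found for 13.0% of probes. Nppa kept the largest SD of the 10 genes with the slide in the fit, 2.92, and Actc1 the smallest, 0.27. Without the 3 arrays of slide 2, a choice made after the values were seen, the median SD was 1.00.

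**Figure D3:**
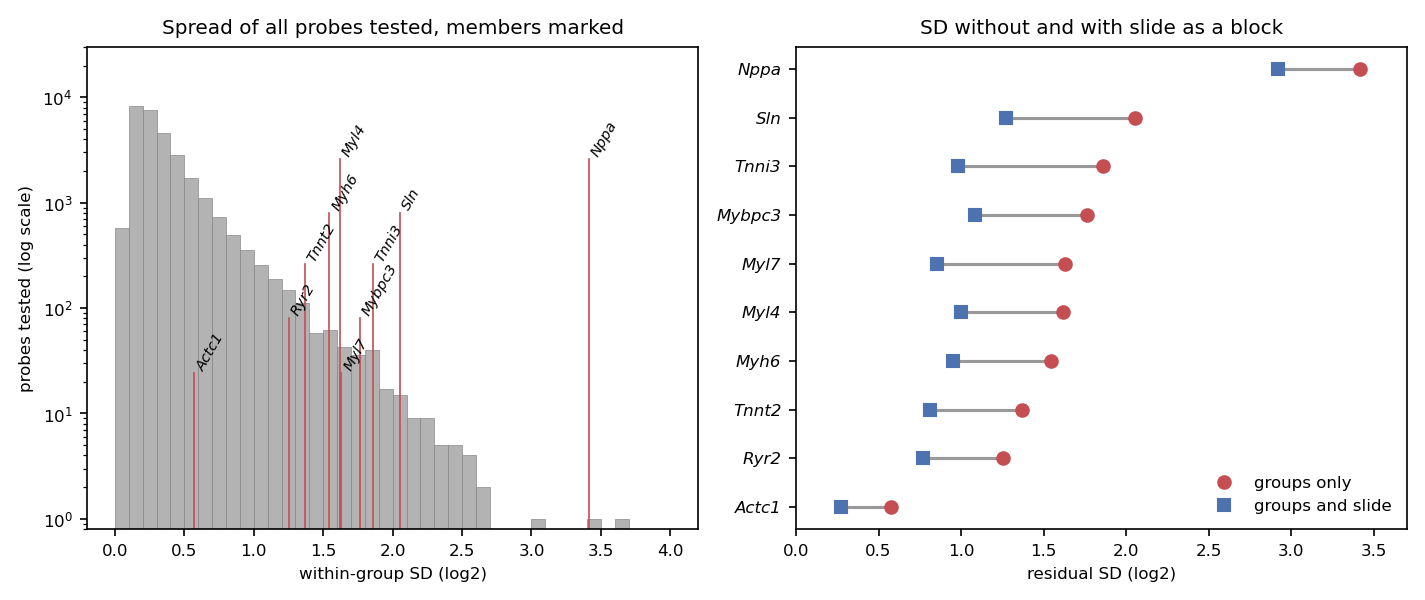
Left: histogram of the within-group SD (log2) of the 29269 probes tested, probe counts on a log scale, with the 10 genes marked at heights chosen only for legibility. Right: each gene's residual SD with groups only (circles) and with groups and slide (squares); all 10 are smaller with slide, and Nppa lies at the right in both panels.

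Slide means show the same split. Myl7 averaged 6.27 on slide 1, 3.19 on slide 2, 5.29 on slide 3 and 6.55 on slide 4. Nppa averaged 1.88, -2.88, 0.28 and 2.31, and Actc1 3.20, 1.96, 2.57 and 3.05, in the same order. Slide 2 was lowest for each of the 10 genes.

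The comparison of each fibre with saline asks what that form of fibre leaves in the lung after 6 months. None of the 15 cardiac probes passed limma's test in any of 7 comparisons, where a pass is an adjusted p (Benjamini-Hochberg, 29269 probes) under 0.05. The share of all probes that passed was 0.0102% in VCF minus Ctrl (3 probes), 0.00342% in the mean of the 3 fibre groups minus Ctrl (1 probe) and 0% in CCF minus Ctrl, RCF minus Ctrl, CCF minus VCF, RCF minus VCF and RCF minus CCF. With so few calls in all, 0 of 15 does not set the cardiac probes apart. At an unadjusted p under 0.05 limma found 2417 probes (8.26%) in VCF minus Ctrl. It found 1930 (6.59%) in CCF minus Ctrl and 1564 (5.34%) in RCF minus Ctrl. The cardiac probes among them were 0, and at these shares too 0 of 15 does not set them apart.

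In VCF minus Ctrl the median difference of the genes was 0.73 (median SE 1.16), against 0.01 for all probes, with 9 genes higher and 1 lower. Nppa differed most, by 1.77 (SE 2.34, 95% interval -3.31 to 6.86), and Myl7 by 0.75 (SE 1.12, -1.69 to 3.18). Actc1, with the narrowest interval, differed by 0.32 (SE 0.40, -0.55 to 1.19). The 95% intervals of all 10 genes held 0, and the smallest adjusted p of a cardiac probe in limma was 0.901. Myl7 thus could be anywhere from 0.310-fold to 9.09-fold of Ctrl at this number of lungs, and absence of a call does not show that the groups were alike. The median was 1.65 without VCF replicate 4 and 0.01 without Ctrl replicate 2.

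In CCF minus Ctrl the median difference was 0.56 (median SE 1.23), against -0.01 for all probes, from -0.08 for Myh6 to 0.75 for Myl7. Nppa differed by 0.35 (SE 2.50, -5.09 to 5.78). In RCF minus Ctrl the median was 0.63 (median SE 1.16), with all 10 genes higher, from 0.02 for Actc1 to 0.80 for Myl4. The 95% intervals held 0 for 10 of 10 genes in both, and the smallest limma adjusted p of a cardiac probe was 0.888 in CCF and 0.997 in RCF. The medians were 1.57 in CCF without CCF replicate 1 and 1.21 in RCF without RCF replicate 4. Without Ctrl replicate 2 they were -0.14 and -0.13. Without CCF replicate 2 the median of CCF minus Ctrl was -0.17. These comparisons share the 3 Ctrl lungs, so their like signs are not separate evidence.

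The 3 fibre groups together differed from Ctrl by a median of 0.63 (median SE 1.00), from -0.01 for Myh6 to 0.90 for Nppa (SE 2.00, -3.45 to 5.25). The sign of this median rested on Ctrl replicate 2, since without it the value was -0.08. An exact permutation test of the 11 fibre lungs against the Ctrl lungs, two-sided, gave p from 0.420 for Ryr2 to 1 for Myh6. These p-values are unadjusted, from 364 divisions of the lungs for 9 genes and 78 for Myh6. Myh6 was the exception in sign only at its brightest probe, which lacks Ctrl replicate 2: the second probe differed by 0.92 (SE 0.87) and the brightest by -0.01 (SE 1.06).

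Between the fibres the medians were -0.15 in CCF minus VCF (7 of 10 genes lower), -0.08 in RCF minus VCF (8 of 10 lower) and 0.13 in RCF minus CCF (6 of 10 higher). The median SEs were 1.12, 1.04 and 1.12, and all 10 intervals held 0 in each. The smallest limma adjusted p of a cardiac probe was 0.949, 1.000 and 0.818 in that order. The signs rested on single lungs. CCF minus VCF turned to 0.81 without CCF replicate 1 and to 0.30, 0.10 and 0.10 without VCF replicates 1, 2 and 3. RCF minus VCF turned to 0.36, 0.09 and 0.20 without the same VCF lungs and to 0.46 without RCF replicate 4. RCF minus CCF turned to -0.94 without CCF replicate 1, and to -0.36 and -0.19 without RCF replicates 1 and 3. Leaving out each lung in turn gave -1.04 to 0.81 for CCF minus VCF, -1.04 to 0.46 for RCF minus VCF and -0.94 to 0.82 for RCF minus CCF.

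**Figure D4:**
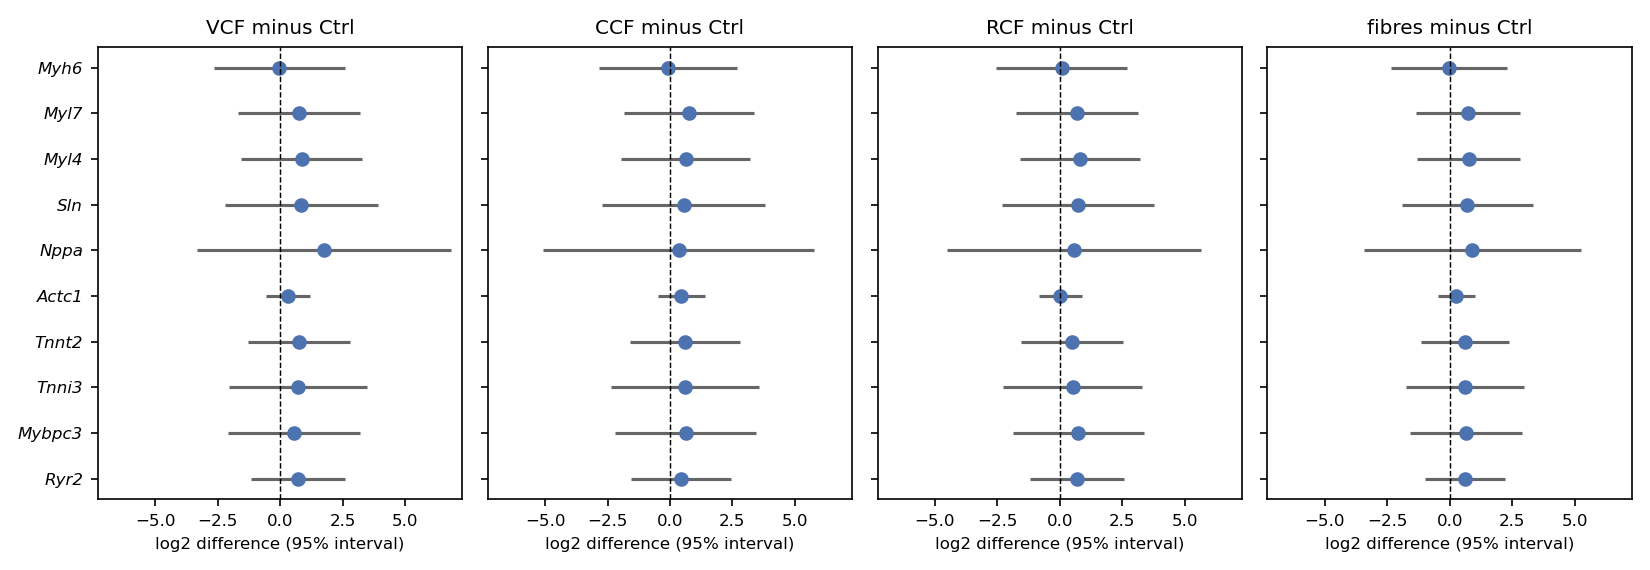
Difference of each gene (rows) from Ctrl in log2 units (horizontal axis) for VCF, CCF, RCF and the mean of the fibre groups, with limma's 95% interval as a line. Every interval crosses the dashed line at 0, from the widest (Nppa) to the narrowest (Actc1).

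Within slides the direction varied for VCF and CCF and was positive for RCF on each of the 3 slides with a Ctrl lung. The median VCF minus Ctrl difference of the genes was 0.85 on slide 1, -0.53 on slide 2 and 0.58 on slide 3. CCF minus Ctrl was 0.27 on slide 1 and -2.27 on slide 3, where CCF replicate 1 is the CCF lung. RCF minus Ctrl was 1.00, 0.37 and 0.41 on slides 1, 2 and 3. Slide 4 held no Ctrl lung and slide 2 no CCF lung. With the slide as a term in the fit, the medians against Ctrl were 0.36 in VCF, -0.47 in CCF, 0.24 in RCF and 0.06 for the fibre groups together.

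Between fibres, CCF minus VCF was -0.58, -2.48 and 0.0044 on slides 1, 3 and 4, and RCF minus CCF was 0.79, 2.58 and -1.38. RCF minus VCF was 0.11, 1.05, -0.14 and -1.49 on slides 1 to 4. Without slide 2 the medians against Ctrl were 0.96 in VCF, -0.14 in CCF and 0.39 in RCF, with 0 cardiac probes passed in each.

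The 10 genes varied together from lung to lung. Correlations are given as a description without a p, since the points share slides, labelling and RNA of the same lungs. Because 4 lungs stand apart, r was taken over the other 10 as well. Over those 10 lungs the 45 pairs of genes had a median Pearson r of 0.821, from 0.275 (Myh6 with Actc1) to 0.981. Over all lungs the median was 0.958, from 0.791 for the same pair, and after removing slide means it was 0.921.

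Genes differed in how far they moved. Per unit of the mean of the other 9 genes, the fitted slope was 2.06 for Nppa, 1.22 for Sln, 1.10 for Tnni3 and 1.05 for Mybpc3. It was 0.96 for Myl7 and Myl4, 0.89 for Myh6, 0.81 for Tnnt2, 0.71 for Ryr2 and 0.30 for Actc1. Over the 10 lungs above the gap the slope of Nppa was 3.04 and that of Actc1 0.33, so the ends of the order were alike there. The middle of the order changed: over those lungs the slope was 0.735 for Tnni3, 0.72 for Myl7 and 0.84 for Ryr2. Nppa in VCF replicate 4 lay 2.82 above its line, the largest departure of that gene. Where a gene had 2 probes, the pairs followed each other with r = 0.994 (Myh6, 13 arrays), 0.997 (Myl4), 0.998 (Nppa) and 0.999 (Tnni3).

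The named genes outside the 10 whose pattern was most like theirs were taken by Pearson's r with the mean of the 10 genes over 14 lungs, among 14393 genes. They were Pgam2 (0.995, a muscle enzyme of glycolysis), Fndc5 (0.995, the precursor of irisin), Mapk10 (0.994, a stress-activated kinase), Yipf7 (0.993), Ckm (0.993, muscle creatine kinase), Fabp3 (0.992, a fatty acid carrier of heart and muscle), Mb (0.992, myoglobin), Trim54 (0.992, a ubiquitin ligase of the sarcomere), Myh4 (0.991, a fast skeletal myosin) and Ckmt2 (0.991, mitochondrial creatine kinase). Over the 10 lungs above the gap their r was between 0.954 (Trim54) and 0.988 (Pgam2). Of the 14393 genes, 91 had r above 0.9 over 14 lungs, 63 above 0.95 and 0 below -0.9, and the median was -0.04.

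Other genes of heart muscle were counted by list, with the number whose r over those 10 lungs exceeded 0.8. The share of all genes above this cut is not given here, so the counts describe the lists and have no background beside them. In the lists that follow, as in those of other tissues, 0 genes passed limma's test in any of the 7 comparisons. Of 15 further genes of the sarcomere and Z-disc 13 were tested, and 9 exceeded 0.8. Those with the largest within-group SD were Mybphl, a myosin-binding protein of the atria (SD 1.84, range 5.09), Myoz2, a Z-disc anchor of calcineurin (1.82, 5.10), and Csrp3, a Z-disc LIM protein (1.79, 4.87). Mybphl was as low as -4.05 in VCF replicate 4, but its r over the 10 lungs was 0.18, against 0.91 over all 14. Nexn, an actin binder of the Z-disc (r = 0.24 over 14 lungs and 0.12 over 10, range 0.70), and Tnni1, the slow skeletal troponin I (r = -0.002 and -0.48), did not move with the cardiac genes. The median CCF, VCF and RCF differences of the list from Ctrl were 0.47, 0.50 and 0.47.

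Of the ventricular myosin chains, Myl3, the essential light chain, moved with the atrial genes (range 5.83, r = 0.96 over 14 lungs and 0.88 over 10). Myl2, the ventricular regulatory light chain, ranged over 1.23 (r = 0.31 and 0.15) and Myh7, the beta myosin heavy chain, over 0.87 (r = -0.52 and 0.23). All 3 probes were well above background on 14 arrays, but that of Myl2 was dim, at a median of -5.45.

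Of 15 genes of calcium handling and conduction 12 were tested, and 5 exceeded 0.8 over the 10 lungs. The largest SDs were those of Hrc, a calcium-binding protein of the reticulum (1.79), Casq2, the cardiac calcium store protein calsequestrin (1.70), and Pln, the pump inhibitor phospholamban (1.70). In that list Jph2, Slc8a1, Kcna5, Gja5 and Hcn4 had r between -0.01 and 0.23 over 14 lungs and between -0.05 and 0.47 over 10. Of 10 muscle energy genes all were tested, and 8 exceeded 0.8, with the largest SDs for Mb (1.83), Ckmt2 (1.82) and Ckm (1.63). Pygm, muscle glycogen phosphorylase, did so least (r = 0.68 over 14 lungs and 0.14 over 10).

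Of 11 transcription factors of the heart 8 were tested. Nkx2-5, a factor of early heart cells, was among those that exceeded 0.8 (SD 1.03, r = 0.93 over the 10 lungs, well above background on 13 arrays). Tbx20 (SD 1.18) was well above background on 3 arrays. Gata6, Tbx5 and Mef2c ranged over 0.91, 2.07 and 2.02 with r between -0.31 and 0.18 over 14 lungs and between -0.05 and 0.09 over 10. Gata4 and Myocd had r of 0.21 and 0.31 over 14 lungs and of 0.36 and 0.49 over 10. Hand2, Isl1 and Shox2 were well above background on 0 arrays.

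Of 5 genes around the natriuretic peptides all were tested. Corin, the protease that activates the Nppa product, moved with the cardiac genes (SD 0.98, r = 0.93 over 14 lungs and 0.90 over 10). Nppb, the B-type peptide precursor, followed less closely (SD 1.04, 0.70 and 0.61). The receptor genes Npr1, Npr2 and Npr3 had r of -0.21, -0.24 and 0.14 over 14 lungs and of -0.52, -0.58 and 0.17 over 10, and Npr1, the receptor of the Nppa product, an SD of 0.35.

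**Figure D5:**
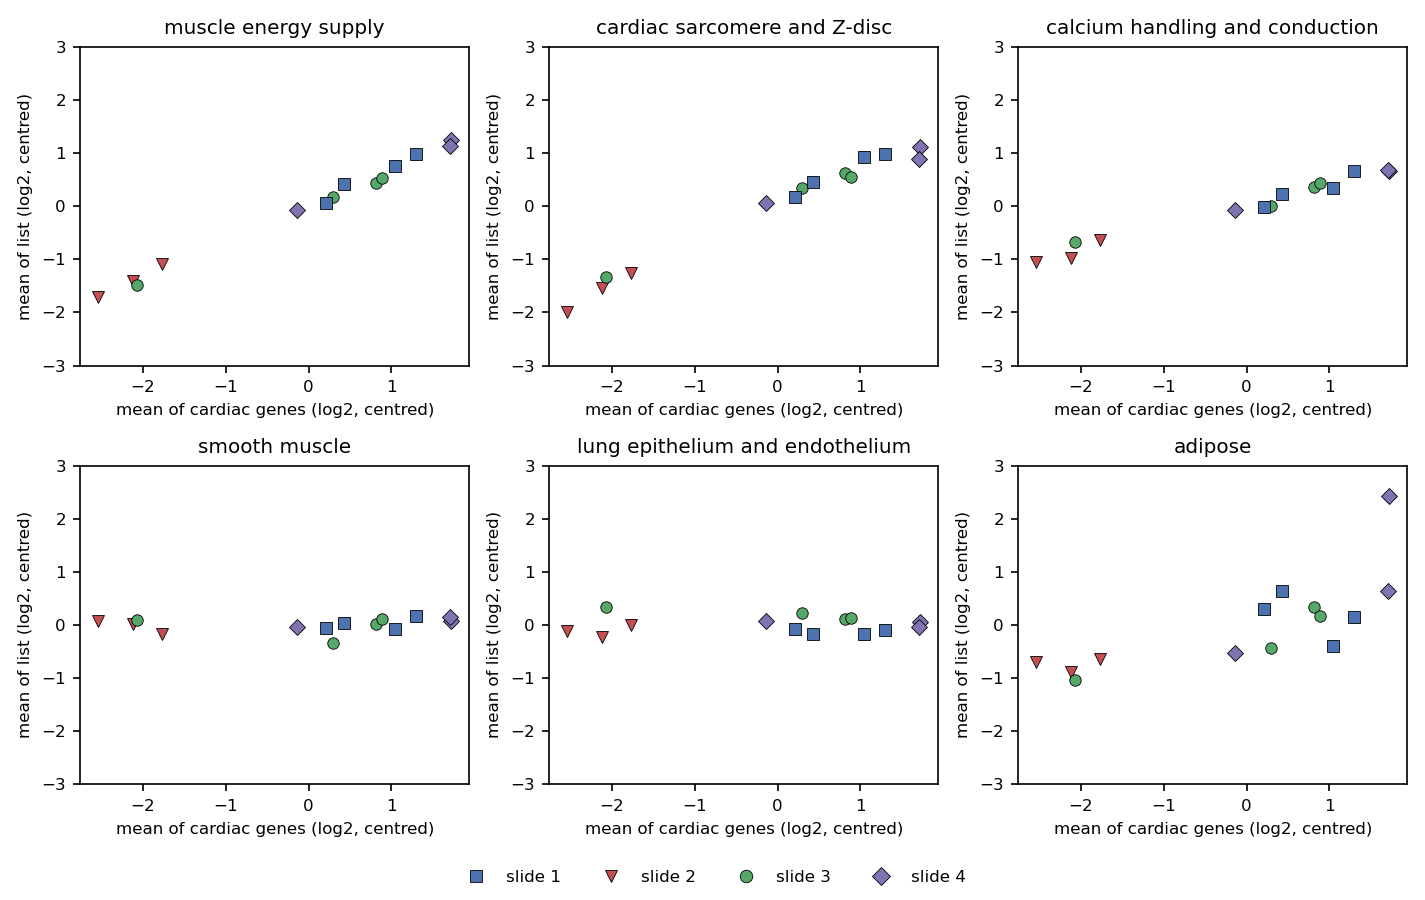
Mean of each gene list (vertical axis) against the mean of the 10 cardiac genes (horizontal axis), both in log2 units centred on each gene's mean, 1 point per lung with symbols for the slide. The energy, sarcomere and calcium lists rise along with the cardiac genes, the smooth muscle and lung lists vary little, and the adipose list is highest in VCF replicate 1.

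Markers of other tissue were measured beside the cardiac genes. Of 12 skeletal muscle markers 11 were tested, and 2 exceeded 0.8 over the 10 lungs: Myh4 (range 4.99) and Myl1, a skeletal light chain also known from early heart (range 4.58). Atp2a1, the calcium pump of fast muscle, followed less closely (range 1.89, r = 0.80 over 14 lungs and 0.74 over 10), as did Tnnt3, a fast troponin T (1.81, 0.72 and 0.42). The other 7, Acta1, Mylpf, Tnni2, Actn3, Myh1, Myh2 and Tnnc2, ranged over 0.48 to 1.60, with r between -0.19 and 0.34 over 14 lungs and between -0.17 and 0.49 over 10. Pvalb was well above background on 0 arrays. The mean of the skeletal list had r = 0.97 with the cardiac mean over 14 lungs and 0.86 over 10, higher than the mean of each other list of another tissue. In that mean Myh4 and Myl1 weigh most, since their ranges were by far the widest of the list. Gene by gene the order was different. The median r of single genes over 14 lungs was 0.289759 for the skeletal markers and 0.683245 for the adipose markers. The skeletal mean ran from -0.62 to 0.17 in Ctrl, -0.64 to 0.59 in VCF, -0.49 to 0.49 in CCF and -0.50 to 0.40 in RCF. Its part in the cardiac values was not tested.

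Of 7 smooth muscle markers, which the vessel and airway walls also carry, 7 were tested and 0 exceeded 0.8; r of their mean was 0.16 over 14 lungs and 0.60 over 10. The mean of 8 lung epithelial and endothelial markers had r = 0.005 over 14 lungs and -0.17 over 10. Adipose markers, all 7 tested, had r = 0.74 over 14 lungs and 0.63 over 10, with Adipoq, the fat cell hormone adiponectin, at 0.86 and 0.74. Their mean ran from -0.89 to 0.30 in Ctrl, -0.70 to 2.42 in VCF, -1.05 to 0.64 in CCF and -0.64 to 0.16 in RCF. Lep and Ucp1, the fat hormone and the brown fat uncoupler, were well above background on 3 arrays each. Fat markers thus varied along with the cardiac genes to some degree, and their part in the cardiac values was not tested. The means of the liver, thymus, red blood cell, and fibroblast and mesothelium lists had r of 0.31, 0.35, -0.24 and -0.50 over 14 lungs, and of 0.72, 0.08, 0.36 and 0.04 over 10.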

How the data were processed

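Total RNA of 14 mouse lungs was labelled with Cy3 and hybridized to one-colour Agilent mouse arrays, 4 to a slide. The deposited scanner output gives, per the file headers, a background-subtracted intensity per spot made by version 10.7.3.1 of Agilent's Feature Extraction software. A processed table, also from the authors, holds log2 values of 27496 probes, of which 100% equal log2 of that intensity less 1 constant per array (tolerance 0.01). How its probes were chosen is not given in the sources used here.

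Control spots (1639) and spots marked as outliers by the software (61 to 254 per array) were left out. Spots of a probe were averaged as log2 intensity, minus the array's 75th percentile. A probe was tested if well above background on at least 3 of 14 arrays, which left 29269. All 4 groups entered 1 fit in limma 3.58.1 (R 4.3.3), two-sided, with Benjamini-Hochberg adjustment over all these probes. The members and lists were chosen with earlier results of these data known. Genes were named through RefSeq transcripts of GRCm38.p6, and the array's grid names a different build, so probe coordinates are left out. Named genes were all 10 members, the 3 genes with the largest within-group SD in each heart muscle list (not the lists of other tissues), and the 10 others most like the members; other list genes named were chosen after their values were seen, and a transcription factor that the rule picks is not reported here. No pairing by replicate number was seen: the median correlation was 0.05 over 19 same-numbered pairs of arrays and 0.004 over 54 other pairs. By slide, it was 0.12 over 18 pairs on the same slide and -0.08 over 55 pairs on different slides. The number of arrays limits the precision. The fit was tested on simulated data. Promoter motifs and figures were made with Python 3.11.15 and matplotlib 3.10.9.

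Alternatives were normexp background correction (offset 50, on the median spot signal), quantile normalization, the authors' processed values, a looser or stricter filter for dim probes, a block for the slide or for the replicate number, fits limited to the groups of a comparison, averaging the probes of a gene, leaving out each array, and, chosen after seeing the data, keeping the marked spots and leaving out slide 2.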

Additional observations from a re-analysis of the deposited data

Results flagged for a closer look

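In VCF, Tnni3 was -0.35 in replicate 4, and the nearest of the other 3 lungs stood at 3.93, so that the gap above this lung took 0.845 of the group's whole range. Ryr2 was -4.32 in the same lung, with the next at -1.23 and a share of 0.884. Both shares pass Dixon's 95% critical value for 4 samples. Of 20 such tests (10 genes in the VCF and RCF groups) these 2 passed, and chance alone flags about 1 in 20. The genes move together, so the 2 are not separate events.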

How the results depend on the processing

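In every setting tried, 0 cardiac probes passed in each of the 7 comparisons. The median differences moved by less than the median within-group SD, but that SD is wider than the differences themselves, and signs of medians turned. With a block for slides CCF minus Ctrl went from 0.56 to -0.47. Without CCF replicate 1, RCF minus CCF went from 0.13 to -0.94. The median within-group SD (1.63) became 0.97 with a block for slides, 1.00 without slide 2, and 1.28 to 1.71 with each array left out in turn. In the mean of the fibre groups minus Ctrl, no gene was called under any setting, but signs turned. Myh6 (-0.01) was 0.012 with normexp, 0.29 with that block, 1.14 when its probes were averaged and 0.52 without slide 2. With the slide block Sln was -0.11, Nppa -0.19, Tnni3 -0.15 and Mybpc3 -0.042. Leaving out each array in turn gave -0.60 to 0.58 for Myh6, -0.12 to 1.23 for Myl7, -0.044 to 1.38 for Myl4, -0.27 to 1.35 for Sln, -0.58 to 1.78 for Nppa, -0.33 to 1.08 for Tnni3 and -0.20 to 1.25 for Mybpc3. For 6 of these genes the sign turned without Ctrl replicate 2; the cause was not tested. With Myh6's marked spot kept, or in the authors' deposited table, it was -0.63. Under normexp the all-probe median of CCF minus Ctrl went from -0.01 to -0.23, and the cardiac median of 0.52 then stood 0.75 above it. It was -0.27 in CCF minus VCF and 0.22 in RCF minus CCF. The replicate number as a replicate block, with no pairing borne out by the data, gave a median of 1.46 in VCF minus Ctrl, 1.45 in RCF minus Ctrl and 1.21 for the fibre groups, and Myh6 at 0.39. Only VCF and RCF have a replicate 4, which is a low lung in both, so no Ctrl lung shares that block. The replicate block changed no call of a cardiac probe. Over all probes, VCF minus Ctrl passed 3 in the fit as reported, 0 to 6 under the other settings and 0 to 16 with an array left out; the fibre groups passed 1, 0 to 2 and 0 to 12, and RCF minus Ctrl 0, 0 to 1 and 0 to 10. Signal over background limits Kcnj3, Tbx20, Lep, Ucp1 and Rag1 (well above background on 3 arrays) and the second Ryr2 probe (4 arrays). Myh1, Tnni1 and Myh2 were well above background on 10, 11 and 12 arrays.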
